A study of Mus musculus with 6 samples.

Results

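The genes described here are the liver X receptors (LXR) and the cholesterol efflux genes that answer to them in macrophages: Nr1h2, Nr1h3, Abca1, Abcg1, Apoe, Mylip, Lpcat3, Arl4c, Soat1 and Pltp. They were taken by gene symbol, and a gene counted as measured where the platform annotation lists a probe set with that gene alone. By this rule 7 of the 10 genes were measured, each by 1 probe set, among 22180 genes measured in all. Nr1h2, Arl4c and Soat1 were not analysed here, because the annotation used lists 0 probe sets with any of them alone.

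The cells were RAW 264.7, a mouse macrophage-like line. All received a GapmeR, an antisense strand with locked nucleic acid bases, which pairs with its target RNA and has it cut by RNase H, at 50 nM by lipid transfection, and RNA was taken at 48 h. The GapmeR was a non-targeting one in 3 samples (Control) and one against Mist, a long noncoding RNA of macrophages, in the other 3 (Mist-targeted). Both groups therefore share the transfection and the presence of an oligonucleotide, and Mist itself was targeted with a single GapmeR design, as far as the labels say. The knockdown could not be checked here, since 0 probe sets are listed under the name Mist. Each sample was read on 1 expression array, as log2 expression. Whether the replicates of a group came from separate cultures is not stated, so the p values cover only how these samples varied, possibly for technical reasons. Markers of the macrophage lineage were present at high levels, with Cd68 at 12.83 ± 0.024 and Csf1r at 10.70 ± 0.12 in Control (mean ± SD of log2 expression, n = 3). The 38 measured genes of the lists of fibroblast, lymphoid, neutrophil, dendritic, erythroid and mast cell markers had list medians between 3.88 and 4.31 in Control, near or below the array medians of 4.47 to 4.50.

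LXR alpha (Nr1h3) and LXR beta (Nr1h2) are nuclear receptors that bind oxysterols, which form when a cell holds excess cholesterol. Paired with a retinoid X receptor, they switch on genes that move cholesterol out of the cell: the transporters Abca1 and Abcg1, the acceptor apolipoprotein gene Apoe and the lipid transfer protein gene Pltp. They also switch on Mylip, which limits uptake through the LDL receptor, Lpcat3, which remodels membrane phospholipids, and the small GTPase gene Arl4c. Soat1 acts on the other side of the balance and esterifies cholesterol for storage.

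LXR binds a DR4 element, a direct repeat of AGGTCA with 4 bases between the copies. The promoter of Abca1 is shown because this gene had the largest difference among the 7 and because its window holds a near match. The 250 bases before an annotated start of Abca1 (RefSeq, GRCm38.p6, chr4:53159896-53160145, minus strand, written 5′ to 3′ along the gene) read as follows, with the 16 bases of the best DR4 match in capitals.
Abca1: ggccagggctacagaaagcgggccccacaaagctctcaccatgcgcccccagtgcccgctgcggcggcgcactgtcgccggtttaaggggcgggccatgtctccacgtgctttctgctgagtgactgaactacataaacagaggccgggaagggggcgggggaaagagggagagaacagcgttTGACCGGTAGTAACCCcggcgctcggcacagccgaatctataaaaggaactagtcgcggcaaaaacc

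The match lies 51 bases before that annotated start and reads on the opposite strand. RefSeq's span for the whole gene reaches 53159988, beyond that start, so the match lies within the gene span. Among the 12 stated letters of the element it has 3 mismatches. The genes with a match at up to 3 mismatches are set out below, read in the direction of the repeat, with letters equal to the repeat in capitals.
Abca1: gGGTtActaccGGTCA
Arl4c: cGGTCtcccggGGTCA

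Windows of 300 bases, from 250 before to 50 after an annotated start, were given for 9 of the 10 genes, and 2 of these 9 held such a match on either strand. Over all 27025 genes with a window the share was 24.5%, so a match of this kind is common. At up to 2 mismatches 0 of the 9 genes had a match, against 3.47% of all genes. These letters describe the windows, and binding of LXR was not measured here.

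At the test's threshold 0 of the 7 genes were called between Mist-targeted and Control (limma, adjusted p under 0.05 over all 41345 probe sets). Of all probe sets 0.128% were called higher and 0.126% lower, so few genes of any kind passed. At an unadjusted p under 0.05 there were 2 of the 7, Abca1 and Pltp, against 9.70% of all probe sets. The share was 11.0% of the 22180 genes read at 1 probe set each. Of the 7 differences 4 were above 0, and their median was 0.15 log2 units, beside 51.7% above 0 and a median of 0.0057 over all probe sets. The median of the 7 was 0.071 without Mist-targeted replicate 2. Abca1 and Pltp lay above every Control array on every Mist-targeted array, and Lpcat3 lay below. Groups that did not overlap were found for 8.20% of all probe sets in the upward and 7.72% in the downward direction. Of the 22180 genes read at 1 probe set each, 2215 were higher and 2211 lower without overlap.

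**Figure D1:**
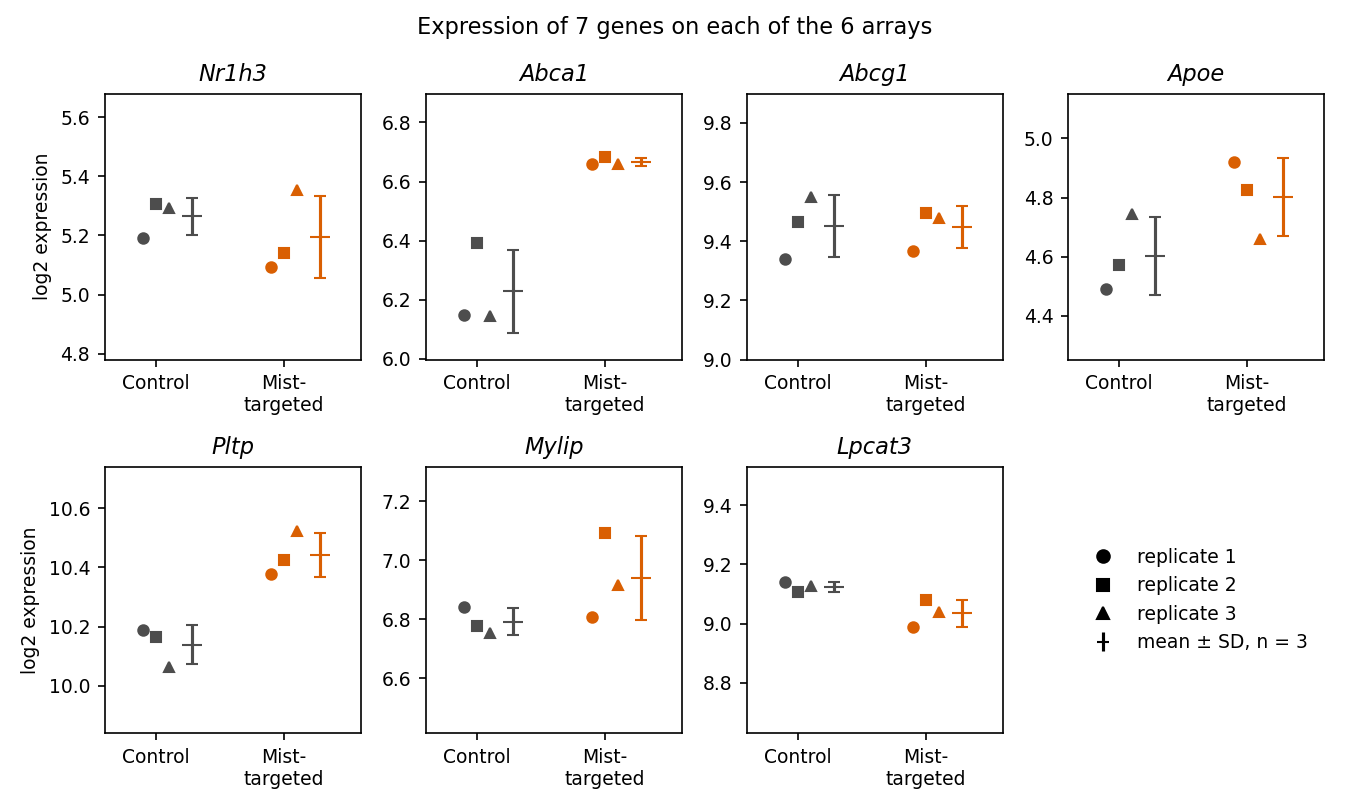
Log2 expression of the 7 measured genes on each array (Control in grey, Mist-targeted in orange, 1 symbol per replicate number), with the mean and SD of 3 arrays beside the points; all panels span 0.9 log2 units but start at different levels. Abca1 and Pltp have groups that do not overlap with Mist-targeted above, Lpcat3 has groups that do not overlap with Mist-targeted below, and the groups of the other 4 genes overlap.

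Of the receptors, only LXR alpha could be read. Nr1h3 had log2 expression of 5.19, 5.31 and 5.29 in the Control replicates 1 to 3 and of 5.09, 5.14 and 5.35 in the Mist-targeted replicates 1 to 3. The groups overlapped, with the highest and the lowest array both Mist-targeted. The difference was -0.069 ± 0.099 (SE, n = 3 per group, limma, adjusted p = 0.90), and its 95% interval, -0.30 to 0.16, corresponds to ratios of 0.813 to 1.12. With single arrays left out the difference ran from -0.15 (without Mist-targeted replicate 3) to -0.017 (without Mist-targeted replicate 1).

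Abca1, the exporter that hands cholesterol and phospholipid to lipid-poor apolipoprotein, had the largest difference of the 7. Its log2 expression was 6.15, 6.39 and 6.14 in the Control replicates and 6.66, 6.68 and 6.66 in the Mist-targeted replicates. The lowest Mist-targeted array stood 0.27 above the highest Control array, and the Mist-targeted arrays lay close together (SD 0.014) while Control replicate 2 stood above the other Control arrays. The difference was 0.44 ± 0.096 (SE, n = 3 per group), 1.36-fold, with a 95% interval of the ratio from 1.16 to 1.58. The unadjusted p was 0.0022, a value that 1.42% of all probe sets undercut, and the adjusted p was 0.15 (limma). When only the 23521 probe sets listed with a single gene were fitted, Abca1 was called at an adjusted p of 0.028, in a fit that called 3.03% of its probe sets. Over all 15 alternatives the adjusted p of Abca1 ran from 0.028 to 0.39 and its difference from 0.40 to 0.52.

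Abcg1 encodes the exporter that loads cholesterol onto mature high-density lipoprotein. Its values were 9.34, 9.47 and 9.55 in the Control replicates and 9.37, 9.50 and 9.48 in the Mist-targeted replicates. Each Mist-targeted value fell within the range of the Control arrays. The difference was -0.0039 ± 0.092 (SE, n = 3 per group, limma, adjusted p = 0.99), and the 95% interval of the ratio was 0.859 to 1.16. The sign of so small a difference turned when single arrays were left out.

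The exporters were also compared within each array, as the log2 value of Abca1 minus that of Abcg1. Set against the Control mean of this quantity, the Control replicates were at 0.033, 0.15 and -0.18 and the Mist-targeted replicates at 0.52, 0.41 and 0.40. The groups did not overlap, and the Mist-targeted mean was 0.44 higher. The exact permutation test of 3 arrays against 3, two-sided, gave p = 0.1, the smallest p it allows. Between 0.35 and 0.52 remained when 1 array was left out.

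Pltp, the phospholipid transfer protein gene, had log2 expression of 10.19, 10.16 and 10.06 in the Control replicates. In the Mist-targeted replicates it was 10.38, 10.43 and 10.52. Every Mist-targeted array lay at least 0.19 above every Control array. The difference was 0.30 ± 0.086 (SE, n = 3 per group, limma, adjusted p = 0.26), 1.23-fold with a 95% interval of 1.07 to 1.42. Leaving out single arrays gave 0.26 to 0.34.

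Apoe, the gene of the apolipoprotein that macrophages secrete as a cholesterol acceptor, is known for low or absent expression in RAW 264.7 cells. Its values were 4.49, 4.57 and 4.75 in the Control replicates and 4.92, 4.82 and 4.66 in the Mist-targeted replicates. They stood close to the array medians of 4.47 to 4.50, and background was not estimated, so the size of its difference is uncertain. Control replicate 3 lay above Mist-targeted replicate 3, so the groups overlapped. The difference was 0.20 ± 0.11 (SE, n = 3 per group, limma, adjusted p = 0.64), with a 95% interval of -0.055 to 0.45.

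Mylip encodes the ubiquitin ligase, also called IDOL, that sends the LDL receptor for degradation. Its values were 6.84, 6.78 and 6.76 in the Control replicates and 6.81, 7.09 and 6.92 in the Mist-targeted replicates. Mist-targeted replicate 1 lay within the Control range, and replicates 2 and 3 lay above it. The difference was 0.15 ± 0.098 (SE, n = 3 per group, limma, adjusted p = 0.71). It was 0.071 without Mist-targeted replicate 2 and 0.21 without Mist-targeted replicate 1.

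Lpcat3 encodes the acyltransferase that places polyunsaturated fatty acids into phosphatidylcholine. It had log2 expression of 9.14, 9.11 and 9.13 in the Control replicates and of 8.99, 9.08 and 9.04 in the Mist-targeted replicates. The groups did not overlap, but only 0.026 separated them. The difference was -0.088 ± 0.078 (SE, n = 3 per group, limma, adjusted p = 0.80), and the 95% interval of the ratio ran from 0.83 to 1.07.

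**Figure D2:**
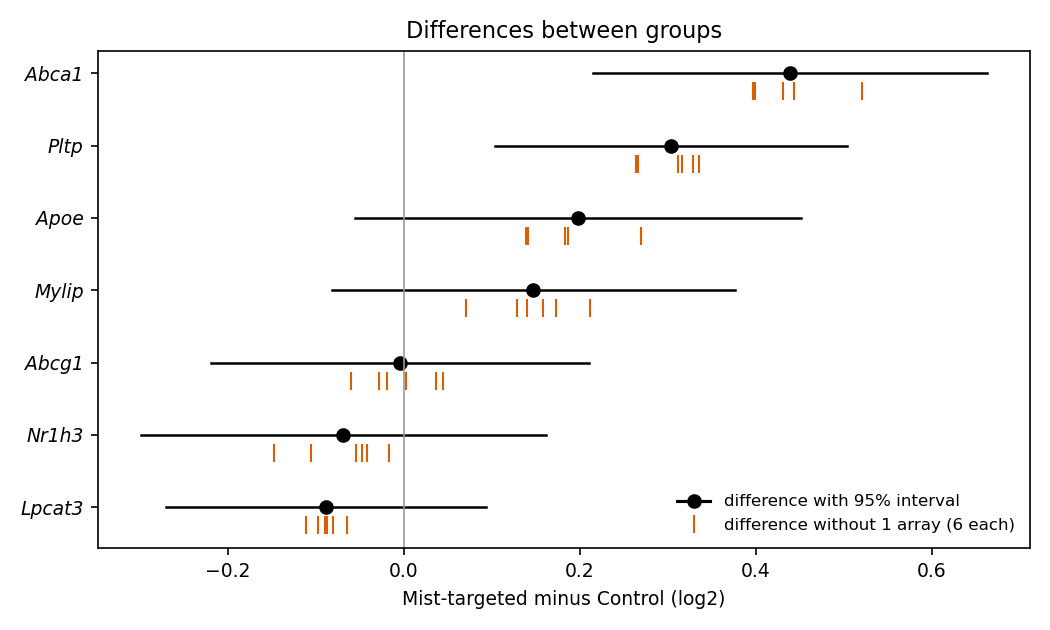
Log2 difference (Mist-targeted minus Control) for each of the 7 genes (point) with its 95% interval from the moderated model (line), and the differences after leaving out 1 array at a time (orange ticks). The intervals of Abca1 (0.22 to 0.66) and Pltp (0.10 to 0.50) lie above 0 without adjustment for multiple tests, and those of the other 5 genes include 0.

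The 3 relatives of Lpcat3 that share its name are described next, chosen partly after their values were seen. Lpcat1, known for making the saturated phosphatidylcholine of lung surfactant, had values of 7.90, 7.89 and 8.03 in Control and 8.23, 8.26 and 8.32 in Mist-targeted. Lpcat2, an enzyme of platelet-activating factor synthesis, had 7.08, 7.24 and 7.23 in Control and 7.40, 7.57 and 7.35 in Mist-targeted, and Lpcat4 had 6.84, 6.69 and 6.88 against 7.05, 7.31 and 7.35. In all 3 the Mist-targeted arrays stood above the Control arrays without overlap, as in 8.20% of all probe sets. Lpcat3 lay below, by a gap of only 0.026 (limma, adjusted p = 0.80). Their differences were 0.33 ± 0.084, 0.26 ± 0.096 and 0.43 ± 0.11 (SE, n = 3 per group), and limma gave adjusted p values of 0.20, 0.42 and 0.21. Of these, Lpcat4 was called when only listed probe sets were fitted (limma, adjusted p = 0.045), in a fit that called 3.03% of its probe sets. Of the 11 lysophospholipid acyltransferase genes other than Lpcat3, 0 were called by limma (3 at an unadjusted p under 0.05), 7 were above 0 and the median was 0.13. The median was 0.21 without Mist-targeted replicate 1 and 0.084 without Mist-targeted replicate 3.

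**Figure D3:**
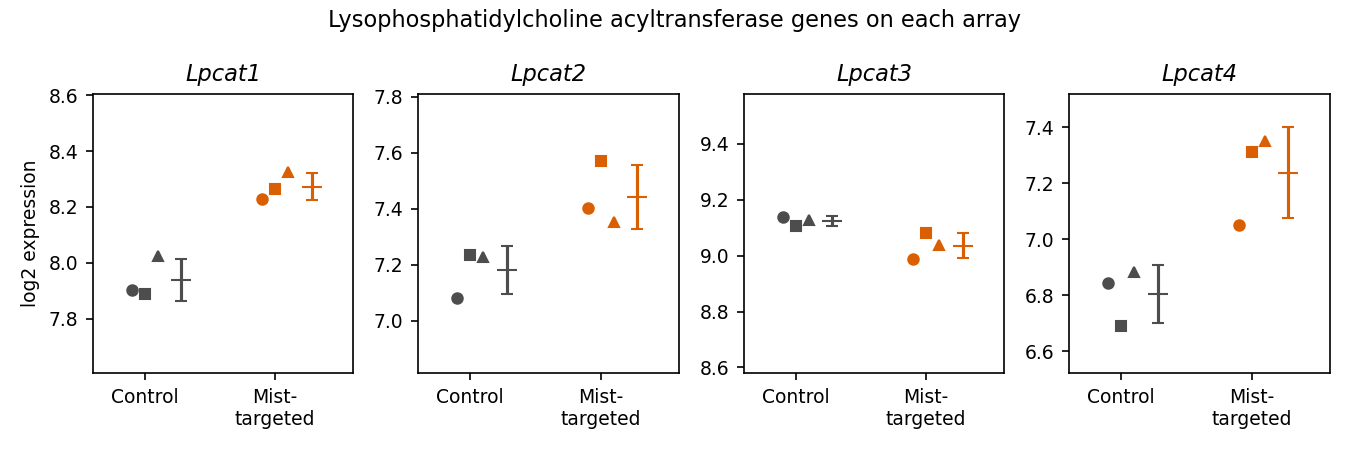
Log2 expression of the 4 Lpcat genes on each array, drawn as in the plot of the 7 genes with panels that span 1 log2 unit. The Mist-targeted arrays lie above Control for Lpcat1, Lpcat2 and Lpcat4 and slightly below for Lpcat3. All 4 pairs of groups do not overlap, as in 8.20% (higher) and 7.72% (lower) of all probe sets. All 4 genes had adjusted p values of 0.20 or more (limma).

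Among 19 further genes known as LXR targets, Cd5l was called and 18 were not. Cd5l encodes a secreted macrophage protein that LXR induces and that supports macrophage survival. Its values were 3.87, 4.36 and 4.17 in the Control replicates and 5.20, 5.26 and 5.50 in the Mist-targeted replicates, so the Control arrays lay below the array medians and the Mist-targeted arrays above. The difference was 1.19 ± 0.14 (SE, n = 3 per group, limma, adjusted p = 0.035), and the call ended whenever 1 array was left out, at differences of 1.05 to 1.30. Background was not estimated, so the size of a difference that starts below the array medians is uncertain. Of the 18 targets not called, 10 were above 0 and 8 below, with a median of 0.019. The median of all 19 was 0.023, and -0.0043 without Control replicate 1. Of the 19, 3 had an unadjusted p under 0.05 (limma), and 3 were higher and 2 lower without overlap. The shares over all probe sets were 9.70%, 8.20% and 7.72%. The genes that follow were named after their values were seen. Srebf1, the LXR-induced regulator of fatty acid synthesis, differed by -0.031 ± 0.082 (limma, adjusted p = 0.95). The desaturase gene Scd1 differed by -0.31 ± 0.079 (limma, adjusted p = 0.21) and Tgm2 by 0.27 ± 0.099 (limma, adjusted p = 0.42). Fasn, Acaca and Elovl5 were at 0.14, 0.052 and 0.015, and Fads1 and Fads2 at -0.14 and -0.15.

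Of the 11 partners and coregulators of LXR, 0 were called by limma (1 at an unadjusted p under 0.05), 4 were above 0 and the median was -0.016. The sign of this median turned without Control replicate 2 (0.0012) and without Mist-targeted replicate 1 (0.022), and it was -0.045 without Control replicate 3. The coactivator gene Ncoa2 had a difference of -0.20 ± 0.078 (limma, adjusted p = 0.44) and the acetyltransferase gene Ep300 one of 0.17 ± 0.076 (limma, adjusted p = 0.55). The retinoid X receptor genes were added for their role as partners. Rxra differed by -0.012 ± 0.12. Rxrb differed by -0.22 ± 0.22, which rested on Mist-targeted replicate 1 at 5.26 while the other 5 arrays lay between 5.98 and 6.10; without that array its difference was 0.053.

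Oxysterols, the ligands of LXR, were not measured, but a list of genes chosen as those of oxysterol enzymes was read. The list included the epoxide hydrolase gene Ephx1, and whether its enzyme acts on oxysterols was not tested. Of these 10 genes 0 were called by limma (2 at an unadjusted p under 0.05, against 9.70% of all probe sets), and 3 were above 0, with a median of -0.022. The largest differences were those of the epoxide hydrolase gene Ephx1 (-0.75 ± 0.12, SE; limma, adjusted p = 0.075) and Hsd3b7, which acts in bile acid synthesis from oxysterols (-0.41 ± 0.099, SE; limma, adjusted p = 0.19). In both, every Mist-targeted array was below every Control array, as in 7.72% of all probe sets. When only listed probe sets were fitted both were called, with adjusted p values of 0.0033 and 0.042 (limma). That fit called 3.03% of its probe sets. Ephx1 was also called with trend and robust moderation. The median of the 10 was -0.082 without Control replicate 3. With the dimmest 40% of probe sets left out 5 of the 10 remained. Of these 5 genes 2 were above 0, and their median was -0.248. The small median of all 10 therefore depended on dim probe sets.

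The genes of cholesterol entry included the other called gene. Cd36, a scavenger receptor for oxidised lipoprotein and fatty acids, had values of 10.30, 10.21 and 10.15 in the Control replicates and 11.33, 11.22 and 11.31 in the Mist-targeted replicates. It rose by 1.07 ± 0.085 (SE, n = 3 per group, limma, adjusted p = 0.0093), and after leaving out single arrays it stayed called without Mist-targeted replicate 2 and in none of the other 5 fits. Of the 10 uptake genes 8 were above 0, with a median of 0.10, which was 0.058 without Mist-targeted replicate 3. Among genes of sterol ester turnover and lysosomal export, 0 of 13 were called by limma (1 at an unadjusted p under 0.05), and 7 were above 0 with a median of 0.0019, which single arrays moved between -0.031 (without Control replicate 3) and 0.050 (without Mist-targeted replicate 1). The sterol carrier gene Gramd1a was at -0.38 ± 0.15 (limma, adjusted p = 0.46), a value that was -0.23 without Mist-targeted replicate 1, and Stard3 was at 0.16 ± 0.083 (limma, adjusted p = 0.61).

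SREBP2 turns on cholesterol synthesis when sterol is low, the opposite state to that in which LXR is active. Of 19 genes of that pathway 0 were called by limma (7 at an unadjusted p under 0.05), and 17 were below 0, with a median of -0.18, and 9 had groups that did not overlap, all with Mist-targeted lower. Over all probe sets 48.3% were below 0, 7.72% were lower without overlap and 9.70% had an unadjusted p under 0.05. Lanosterol synthase, Lss, differed by -0.33 ± 0.087 and Cyp51 by -0.30 ± 0.081 (SE, n = 3 per group; limma, adjusted p = 0.22 and 0.24). Against the Control mean the list medians of the Mist-targeted replicates were -0.24, -0.18 and -0.12, and the list median was -0.11 without Mist-targeted replicate 1. No test of the difference between this list and the LXR genes was made.

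**Figure D4:**
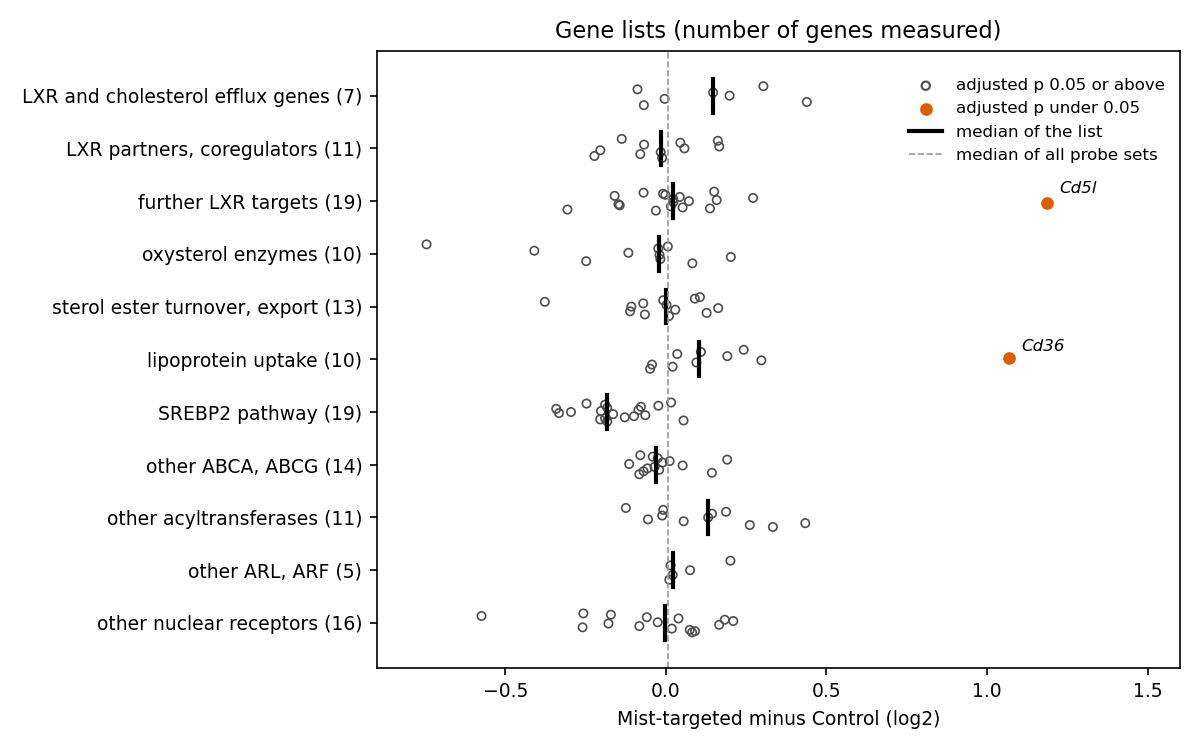
Difference of Mist-targeted minus Control (log2) for each measured gene of 11 lists, with filled points for genes at an adjusted p under 0.05, a black bar at each list's median and a dashed line at the median of all probe sets. Only Cd5l and Cd36 are filled; 17 of 19 SREBP2 pathway genes lie below 0, while the 7 LXR and cholesterol efflux genes lie on both sides.

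The genes with array profiles most like that of Abca1 were Lrr1, E2f8, Tet3, Ankrd52 and AF357355. Likeness was the mean absolute difference over the 6 arrays between profiles centred on their own means, and it was 0.025 to 0.039 log2 units for these 5, against a median of 0.23 over all genes. Since the choice used the same 6 arrays, their differences between groups (0.39 to 0.45) were bound to be close to that of Abca1.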

How the data were processed

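The deposited values are log2 expression per probe set, 1 column per array. The submitters' processing notes list RMA and Partek but no versions; array design and build are not given in the sources read here. RMA fits all arrays to 1 distribution and can thereby hide a shift common to most genes. The log2 values were used as deposited (range 2.50 to 14.1), and 41345 probe sets were fitted with limma 3.58.1 in R 4.3.3 (moderated linear model, two-sided, no covariates; prior degrees of freedom 3.48), with Benjamini-Hochberg adjustment over all. The median SE was 0.11, and the number of arrays limits the precision. The code of the fit was tested on simulated data in which every probe set had the same spread. That test does not cover the calls made on the real arrays, where the spread can differ between probe sets. A gene with several probe sets was read at the one with the highest mean.

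Of the probe sets, 23521 were listed with 1 gene, 1814 with several and 16010 not at all. Genes and lists were chosen with earlier results of these data known. Named genes are all 7 measured genes and, per list, every called gene or otherwise the 2 with the smallest p; others are marked as added. Promoter windows are RefSeq's, and Python 3.11.15 with pandas 2.3.3, scipy 1.17.1 and matplotlib 3.10.9 was used for the rest. Replicate numbers were not taken as pairs. Deviations from the group means correlated at 0.20, 0.096 and 0.033 between same-numbered arrays, and at -0.15 to 0.060 between differently numbered ones. These values do not exclude a pairing, and a fit with the replicate number as a block is among the alternatives. Alternatives covered pairing, moderation, filtering, normalization, array weights, probe set choice and leaving out each array.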

Additional observations from a re-analysis of the deposited data

How the results depend on the processing

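The count of called genes among the 7 (limma) was 0 in 14 of 15 alternatives, the replicate block included, and 1 (Abca1) when only listed probe sets were fitted. The genes above 0 numbered 4 or 5, and the median of the 7 differences lay between 0.071 and 0.16. Abcg1, at -0.0039, ranged from -0.060 to 0.045 when 1 array was left out and was above 0 without Control replicate 2 (0.0030), Control replicate 3 (0.045) or Mist-targeted replicate 1 (0.036); the other 6 genes kept their sign in all 15 alternatives. The within-array difference of Abca1 and Abcg1 had the same sign in its 10 alternatives. The exact p values were 0.1 or more, in each case the smallest that the number of arrays allowed.

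With all probe sets fitted, limma called 105 of them. The count was 161 with the dimmest 40% left out, 287 with trend and robust moderation and 713 with listed probe sets only, where the prior degrees of freedom were 7.85. It was 0 without moderation (4106 at an unadjusted p under 0.05), 0 with the replicate number as a block (4368), and 2 to 40 when 1 array was left out. The pathway genes called numbered 2 (Cd5l and Cd36). In readings added after seeing the data they numbered 3 with the dimmest 40% left out (also Nr1d2), 4 with trend and robust moderation (also Ephx1 and Nr1d2), 6 with listed probe sets only (also Ephx1, Nr1d2, Hsd3b7 and Lpcat4), 0 without moderation, 0 with the replicate block and 0 to 1 when 1 array was left out. Genes with a promoter match numbered 2 at up to 3 mismatches and 0 at up to 2 mismatches. The cause of these shifts was not tested. The planned comparison of Nr1h3 with Nr1h2 was not run, as Nr1h2 was not analysed here.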

Other observations

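Among 16 other ligand-activated nuclear receptor genes 0 were called by limma (3 at an unadjusted p under 0.05), 8 were above 0 and the median was -0.0035, between -0.039 (without Mist-targeted replicate 3) and 0.037 (without Control replicate 1) when 1 array was left out. With the dimmest 40% of probe sets left out 11 of these genes remained. Only 3 of the 11 were above 0, and their median was -0.083, so the even split depended on dim probe sets. Nr1d2, which encodes a haem-binding repressor of the circadian clock, had log2 expression of 7.22, 7.32 and 7.16 in the Control replicates and 6.72, 6.69 and 6.57 in the Mist-targeted replicates, a difference of -0.57 ± 0.088 (SE, n = 3 per group, limma, adjusted p = 0.062), which passed with the dimmest 40% of probe sets left out, with trend and robust moderation and with listed probe sets only (adjusted p range over the alternatives 0.0044 to 0.24). Rora, a receptor of the same clock circuit, differed by -0.26 ± 0.091 (limma, adjusted p = 0.40). In both the groups did not overlap, with Mist-targeted lower, as in 7.72% of all probe sets.

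The 14 other ABCA and ABCG transporter genes had differences between -0.11 and 0.19 and a median of -0.030, 0 were called by limma (0 at an unadjusted p under 0.05), and the groups overlapped in all 14. Their median level in Control was 3.915, below the array medians of 4.47 to 4.50, and Abcg2 was at 3.87 in Control. With the dimmest 40% of probe sets left out 2 of the 14 remained. Background was not estimated, so for most of these genes a small difference may reflect lack of signal. Abcg2 was at 0.19 ± 0.13 and Abca3 at 0.14 ± 0.10 (limma, adjusted p = 0.72 and 0.73); without Mist-targeted replicate 2 they were at 0.081 and 0.058. Of 5 other ARL and ARF genes measured, 5 were above 0 with all arrays, by 0.011 to 0.20, and 3 without Control replicate 1 or without Mist-targeted replicate 2; the membrane traffic GTPase gene Arf6 was highest at 0.20 ± 0.077 (limma, adjusted p = 0.45), and Arl3 was at 0.075 ± 0.088, or 0.034 without Mist-targeted replicate 3.

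Of the 9 macrophage markers 4 were above 0 and 5 below, with a median of -0.059. Fcgr1 rose by 1.01 ± 0.086 (limma, adjusted p = 0.012), and the other 8 were not called. The groups did not overlap for 4 of the 9, 2 higher (Fcgr1 and Adgre1) and 2 lower (Ptprc and Cd14). Over all probe sets the shares were 8.20% higher and 7.72% lower. Named after their values were seen, Adgre1 was at 0.23 ± 0.089, Ptprc at -0.27 ± 0.084 and Cd14 at -0.28 ± 0.10 (limma, adjusted p = 0.45, 0.32 and 0.42). Of the 6 dendritic cell markers 3 were above 0 and 3 below, with a median of 0.039, or -0.017 without Mist-targeted replicate 1. Itgax, an integrin gene that macrophages also express, fell by 0.84 on the log2 scale (limma, adjusted p = 0.045), and the other 5 dendritic cell markers were not called. With 1 array left out Fcgr1 was called only without Mist-targeted replicate 2, and Itgax was called in 0 of 6 such fits. The other 5 marker lists had 0 called genes by limma (1 at an unadjusted p under 0.05, Camp); the genes with the smallest p in each were Dcn, Lum, Cd3d, Cd3e, Pax5, Ebf1, Camp, Ly6g, Mcpt4 and Cpa3, with adjusted p values from 0.50 to 0.93.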
